A study of Mus musculus with 9 samples.

Results

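The 38 interferon-induced genes described here were taken as a fixed list by gene symbol, with earlier results of these data known. They are genes that interferons are known to switch on. Of these, 36 were measured, among 18194 genes in all, each by its brightest probe set, on average over all 9 arrays, among those that name exactly 1 gene. Isg15 and Ifi44, which have no such probe set, were not analysed here. The 36 were compared in RNA from osteocyte-enriched shafts of the tibia of CD1 wild type mice aged 16 to 18 weeks, with 3 arrays in each of 3 groups. Virgin mice were age-matched to the mothers. Lactation mice had been obtained at 12 weeks of age, became pregnant, and were killed on day 12 of lactation with litters set to 8 to 13 pups. Post-lactation mice lost their pups on lactation day 12 and were killed 7 days after this forced weaning. The shafts had been freed of periosteum and marrow and digested in rounds with collagenase, trypsin and EDTA, which strips cells from bone surfaces. The series was designed around perilacunar remodeling, in which osteocytes, the cells buried in bone matrix, take up and rebuild the matrix around themselves.

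Type I interferons bind a receptor that activates the kinases Jak1 and Tyk2, and the signal ends at the interferon-stimulated response element of target genes, which is bound by a complex that holds Stat2 and Irf9. Interferon gamma acts through a separate receptor and the gamma-activated site, and Irf1 carries part of that response. The induced proteins sense and degrade foreign RNA, block viral replication and budding, attack membranes around intracellular pathogens, trim peptides for antigen presentation and damp the signal again. In bone, interferons are known as inhibitors of osteoclast formation.

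In post-lactation relative to lactation bone 2 of the 36 genes fell, Isg20 and Rsad2, beside 0.693% of all genes. Relative to virgin bone Isg20 fell, beside 0.17% of all genes, a call lost in a fit that takes account of sets of arrays (adjusted p = 0.0745) and without any 1 of 6 of the 9 arrays. With all 9 arrays no other member passed the test in any comparison. Passing means an adjusted p under 0.05 in limma, a linear model fitted to all genes with pooled estimates of spread. The p was adjusted by Benjamini and Hochberg over all 18194 genes. Both genes that fell had their highest mean in lactation, whereas 31 of 36 members had a lower mean in lactation than in virgin bone.

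Promoters of the members are shown first, because the members differ in which interferon element stands near the start of transcription. RefSeq promoters on GRCm38.p6, from 250 bases before to 50 bases after a start, were at hand for 29 of the 38 genes and numbered 36. Both strands were searched for the core of the interferon-stimulated response element, GAAANNGAAA, and for the gamma-activated site, TTCNNNGAA. The first stood in 16 of the 36 promoters, or 44.4%, against 3.44% of all 32851 promoters in the table. The second stood in 9 of the 36, or 25.0%, against 8.30% of all promoters. A match of each overlapped in the Bst2 promoter. A match is a stretch of letters and not a bound site, and a window without one says nothing about either factor. Of the genes that fell, Rsad2 held the response element core and Isg20 the gamma-activated site alone, and each pattern also stood in members that did not pass.

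The following stretches of 70 bases are read on the strand of each gene. They hold the matches of the 2 genes that fell, of Irf1, and of Ifit1, Ifit3, Gbp2 and Gbp3, some of the members lower in lactation. They lie at chr12:26456528-26456597 on the minus strand (Rsad2), chr7:78913326-78913395 on the plus strand (Isg20), chr19:34640760-34640829 on the plus strand (Ifit1), chr19:34583348-34583417 on the plus strand (Ifit3), chr3:142620579-142620648 on the plus strand (Gbp2), chr3:142559974-142560043 on the plus strand (Gbp3) and chr11:53769899-53769968 on the plus strand (Irf1). Capitals mark the response element core in Rsad2, Ifit1, Ifit3, Gbp2 and Gbp3, each on the opposite strand and so reading TTTC first, and the gamma-activated site in Isg20 and Irf1. For Isg20, Gbp3 and Irf1, which have more than 1 listed start, the promoter of the first is shown.
Rsad2: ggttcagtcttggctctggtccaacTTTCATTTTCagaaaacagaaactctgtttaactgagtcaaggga
Isg20: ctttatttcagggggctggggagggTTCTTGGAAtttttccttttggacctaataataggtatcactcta
Ifit1: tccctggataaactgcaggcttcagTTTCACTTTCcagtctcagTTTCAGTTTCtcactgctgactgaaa
Ifit3: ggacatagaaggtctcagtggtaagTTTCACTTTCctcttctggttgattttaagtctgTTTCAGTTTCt
Gbp2: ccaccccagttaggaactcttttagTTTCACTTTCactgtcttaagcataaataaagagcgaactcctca
Gbp3: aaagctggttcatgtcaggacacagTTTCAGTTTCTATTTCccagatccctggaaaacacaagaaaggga
Irf1: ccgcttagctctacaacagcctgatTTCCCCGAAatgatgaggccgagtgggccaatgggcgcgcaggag
The first match began at -120 from the start in Rsad2, -73 in Isg20, -104 in Ifit1, -156 in Ifit3, -59 in Gbp2, -45 in Gbp3 and -90 in Irf1. Ifit1 and Ifit3 each held 2 separate cores, and in Gbp3 2 cores overlapped. Ifit2, also lower in lactation than in virgin bone (-0.45), held no core in either of its promoters. Its first promoter held a gamma-activated site at -241.

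**Figure D1:**
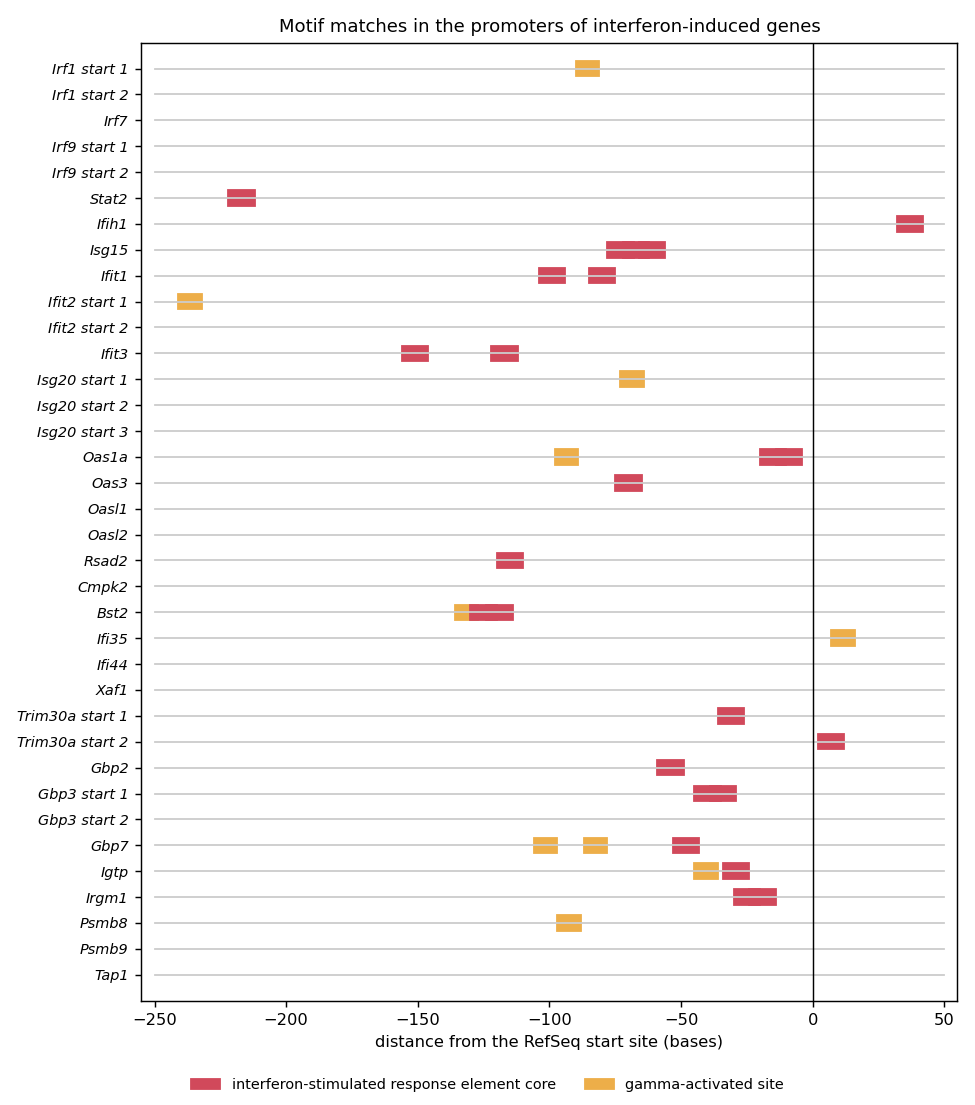
Matches of the interferon-stimulated response element core and of the gamma-activated site in 36 RefSeq promoters of the interferon-induced genes, drawn by distance in bases from the start of transcription. Of the 36 promoters, 16 held the first and 9 the second, and the matches in Rsad2 and Isg20 began at -120 and -73.

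Values are log2 signals as deposited, made by RMA, and for each group they are given for replicates 1, 2 and 3 in that order. The 9 arrays formed 3 sets, each with 1 array of every group, found from exactly equal values: within a set 2.50% to 44.1% of probe sets were equal between 2 arrays, and between sets at most 2 probe sets were. The sets joined virgin 1 with lactation 3 and post-lactation 1 (set 1), virgin 2 with lactation 2 and post-lactation 3 (set 2), and virgin 3 with lactation 1 and post-lactation 2 (set 3). The main differences are therefore also given within sets, and adjusted p-values also with the set as a block. Exactly equal values give some members a difference of exactly 0 within a set. A gene with such a tie counts as neither higher nor lower within all 3 sets, which lowers these counts for members and for all genes. Where groups are said not to overlap, this describes 3 arrays against 3. The share of all genes without overlap was not counted, so it sets no member apart from other genes. Virgin 1 stood apart: the mean of 11 osteocyte markers lay 3.30 log2 units above the array median there, against 4.98 and 5.36 in the other virgin arrays. Of these markers Fgf23 alone had no group mean above 4.87, the 40th percentile of gene means and the floor used here for dim values. Presence in each single array was not counted. A gene is called below the floor where none of its 3 group means exceeds it, and where 1 of 2 compared means lies below it the fold is given as a lower bound. For the post-lactation arrays the titles, from which groups were taken, disagree with the source field, which calls them virgin. One protocol sentence speaks of femurs where the other fields say tibiae. Whether the arrays of a group stand for separate mice is not said in the labels, so the spread behind each p-value may be technical.

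Isg20 encodes an exonuclease that degrades single-stranded RNA. Its log2 signal was 8.81, 9.72 and 8.61 in the virgin arrays, 10.11, 10.63 and 9.88 in the lactation arrays and 7.23, 7.15 and 6.76 in the post-lactation arrays. The groups did not overlap in any pair: every lactation array lay above every virgin array, and every post-lactation array lay below both. Isg20 fell by 3.17 ± 0.31 (SE) on the log2 scale in post-lactation bone relative to lactation bone, an 8.97-fold lower level (mean 7.04 ± 0.25 in post-lactation and 10.21 ± 0.38 in lactation arrays, SD, n = 3 each, limma adjusted p = 0.000408, and 0.00395 with the set as a block). The difference was -2.66, -3.87 and -2.97 within sets 1, 2 and 3. Relative to virgin bone, post-lactation Isg20 fell by 2.0 ± 0.31 (SE), 4.01-fold (adjusted p = 0.031). That call was lost with the set as a block, at an adjusted p of 0.0745, and it was lost without virgin 1, virgin 2, lactation 1 or any 1 of the post-lactation arrays, at 0.0657 to 0.172. The difference between lactation and virgin bone, 1.16 ± 0.31 (SE), did not pass (adjusted p = 1, and 0.285 with the block), although it was positive within every set, at 1.07, 0.91 and 1.5.

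Rsad2 encodes viperin, an enzyme that turns a nucleotide into a terminator of viral RNA chains. It measured 9.08, 10.60 and 8.95 in virgin arrays, 10.42, 10.86 and 9.68 in lactation arrays and 7.91, 8.23 and 8.16 in post-lactation arrays. All post-lactation arrays lay below all others, while virgin and lactation arrays overlapped. Rsad2 fell by 2.22 ± 0.42 (SE) in post-lactation relative to lactation bone, a 4.67-fold lower level (mean 8.10 ± 0.17 in post-lactation and 10.32 ± 0.60 in lactation arrays, SD, n = 3 each, adjusted p = 0.0377, and 0.0204 with the block), with -1.77, -2.70 and -2.19 within the sets. Without lactation 1, lactation 2 or any 1 of the post-lactation arrays the adjusted p was 0.111 to 0.193, and with values below 4.87 raised to it 0.341. The difference of -1.45 ± 0.42 from virgin bone did not pass (adjusted p = 0.922, and 0.216 with the block), nor did that of 0.78 ± 0.42 between lactation and virgin bone (1, and 0.626). The 3 probe sets of Rsad2 gave the same directions of group means, with -2.22, -2.60 and -2.52 for post-lactation minus lactation. Within array set 1, however, the probe sets not used were lower in lactation 3, at 7.34 and 6.36, than in virgin 1, at 7.61 and 6.74.

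Cmpk2, a mitochondrial nucleotide kinase that makes the substrate of viperin, is the next gene to Rsad2 on chromosome 12, with 0 protein-coding genes between them. Its signal was 5.50, 5.99 and 6.07 in post-lactation arrays, against 5.99, 6.70 and 5.80 in lactation arrays and 5.83, 6.73 and 5.99 in virgin arrays. The groups overlapped. Its difference was -0.31 ± 0.31 (SE) for post-lactation minus lactation (adjusted p = 1, and 0.359 with the block) and -0.33 ± 0.31 for post-lactation minus virgin (1, and 0.611), so neither passed.

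**Figure D2:**
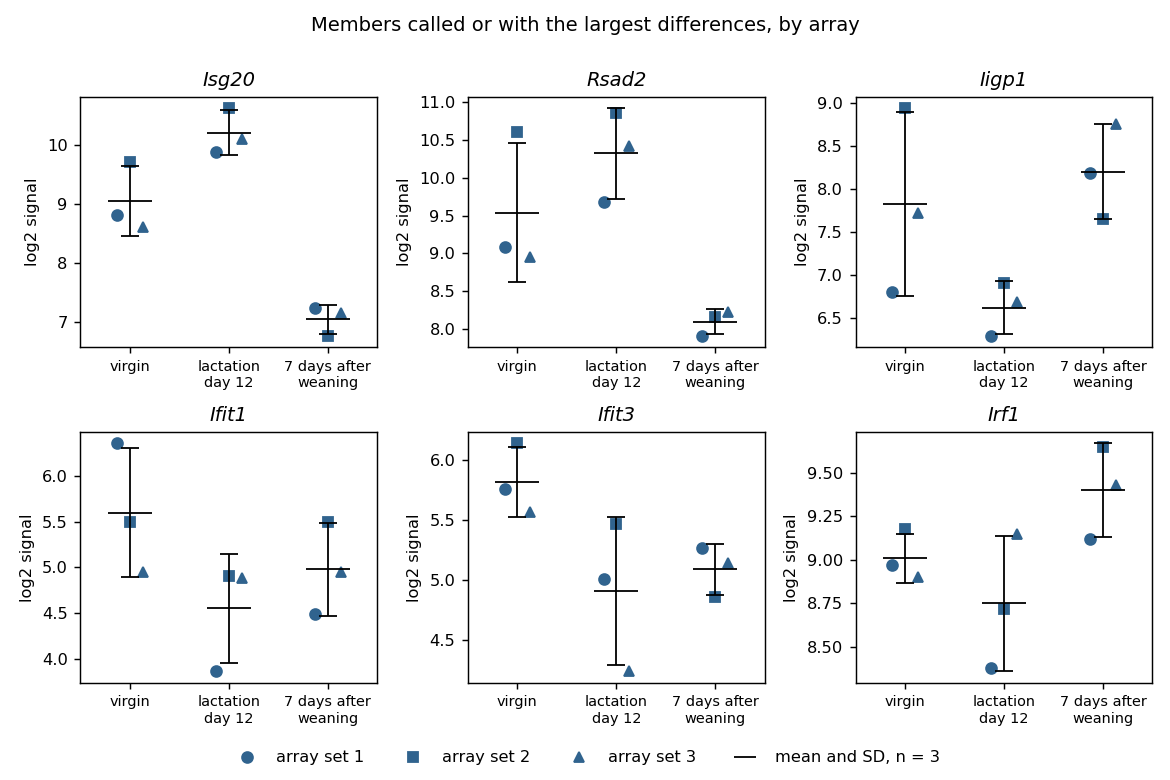
Log2 signal of Isg20, Rsad2, Iigp1, Ifit1, Ifit3 and Irf1 in the 9 arrays, by group, with the mean and SD of 3 arrays and symbols for the array set. The post-lactation arrays of Isg20 lie at 6.76 to 7.23, below all others, and the lactation arrays of Iigp1 lie at 6.29 to 6.90, below all post-lactation arrays.

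Erythroid markers had the same order of group levels as Isg20 and Rsad2. The mean log2 signal of 14 erythroid genes above the array median was 2.99 to 3.97 in virgin arrays, 4.42 to 4.84 in lactation arrays and 0.30 to 0.92 in post-lactation arrays. All 14 were above the floor, and 13 of 14 fell in post-lactation relative to lactation bone (14 of 14 with the block), with a median difference of -4.56. Of all genes 0.693% fell there, and 2.99% with the block. Relative to virgin bone 10 of 14 fell, 9 with the block, with a median of -3.28, beside 0.17% and 0.423% of all genes. All 14 also had higher means in lactation than in virgin bone, with a median of 1.22, but none passed without or with the block. The part of erythroid RNA in the levels of Isg20 and Rsad2 was not tested, and in bulk RNA fewer cells of a type and less RNA per cell cannot be told apart.

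Of the 7 regulators and sensors among the members none passed in any comparison. Irf1, the transcription factor most tied to interferon gamma, measured 9.12, 9.43 and 9.65 in post-lactation arrays, against 9.15, 8.72 and 8.38 in lactation arrays. Only the highest lactation array reached into the post-lactation range. Its difference was 0.65 ± 0.24 (SE), positive within each set at 0.73, 0.93 and 0.28, and did not pass (adjusted p = 0.684, and 0.125 with the block). Against the virgin arrays, at 8.97, 9.18 and 8.90, the post-lactation difference was 0.39 (adjusted p = 1, and 0.645 with the block).

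Of these 7 genes, all had lower means in lactation than in virgin bone, by 0.05 to 0.33, with 0 called. They include Irf7, which amplifies interferon production, with -0.16, and Irf9 and Stat2, of the complex named above, with -0.24 and -0.05. Ifih1 and Dhx58, sensors of double-stranded RNA, differed by -0.21 and -0.10, and Zbp1, a sensor of Z-form nucleic acids, by -0.33. After weaning 3 of 7 had higher means than in lactation, with a median of -0.01, and 6 of 7 had lower means than in virgin bone, with a median of -0.18. Ifih1 was the 1 member of these whose post-lactation arrays, at 6.95, 7.31 and 7.25, all lay below the virgin arrays, at 7.68, 7.48 and 7.33 (difference -0.33 ± 0.21, adjusted p = 1, and 0.657 with the block). Stat2 lay below the floor.

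Usp18 removes Isg15 from proteins and blocks the type I interferon receptor. It measured 3.86, 4.81 and 3.91 in post-lactation arrays, against 4.98, 5.27 and 4.85 in lactation arrays, with no overlap. The difference was -0.84 ± 0.34 (SE), negative within each set at -0.99, -1.36 and -0.17, and did not pass (adjusted p = 0.795, and 0.224 with the block). The post-lactation mean of 4.19 lies below the floor, so the fold is at least 1.12. In virgin arrays Usp18 measured 4.07, 5.27 and 4.90, and the difference of 0.29 for lactation minus virgin, whose virgin mean of 4.75 lies below the floor, turned to -0.05 without virgin 1.

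The Ifit proteins bind foreign RNA and hold back its translation. Ifit1 measured 4.88, 4.91 and 3.86 in lactation arrays, against 6.36, 5.50 and 4.95 in virgin arrays, and Ifit3 measured 4.24, 5.47 and 5.01 in lactation arrays, against 5.76, 6.14 and 5.57 in virgin arrays. For both genes every lactation array lay below every virgin array. The differences were -1.06 ± 0.40 (SE) for Ifit1 and -0.92 ± 0.30 for Ifit3, and neither passed (adjusted p = 1 for both, and 0.656 and 0.367 with the block). The lactation mean of Ifit1, 4.55, lies below the floor, so its fold is at least 1.67, and with low values raised to the floor the differences were -0.72 for Ifit1 and -0.71 for Ifit3.

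Within the sets Ifit1 gave -2.50, -0.59 and -0.08, of which the first is set against a lactation array at 3.86, below the floor, and Ifit3 gave -0.75, -0.67 and -1.33. Without virgin 1 they were -0.68 and -0.95. Ifit2, next to Ifit3 on chromosome 19, measured 6.04, 6.17 and 6.36 in lactation arrays, against 7.14, 6.49 and 6.30 in virgin arrays, and overlapped there (difference -0.45 ± 0.25, adjusted p = 1, and 0.446 with the block). After weaning Ifit2 measured 6.70, 6.58 and 6.33 and Ifit1 4.49, 4.95 and 5.50 in post-lactation arrays, each reaching into the virgin range. Ifit3 measured 5.27, 5.14 and 4.86 there, below every virgin array (difference -0.73 ± 0.30, adjusted p = 1, and 0.535 with the block). Ifit1 differed from virgin bone by -0.62 ± 0.40 (1, and 0.739).

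The Oas proteins make a messenger that activates an RNA-degrading enzyme, and the Oasl proteins are their relatives. None of these 5 genes passed in any comparison. Oas1a measured 6.94, 6.82 and 6.73 in lactation arrays, against 6.70, 7.58 and 7.01 in virgin arrays, a difference of -0.27. Among them Oas2 had the widest spread within a group, at 4.20, 6.28 and 5.68 in post-lactation arrays, an SD of 1.07. Oasl1, which in mice holds back Irf7 translation, differed by -0.08 between lactation and virgin bone. Oas3 and Oasl2 lay below the floor. Together with the Ifit genes and Isg20, 7 of these 9 members had lower means in lactation than in virgin bone, with a median of -0.27, and 8 of 9 had lower means in post-lactation than in virgin bone, with a median of -0.19.

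The other antiviral effectors gave no call beside Rsad2. Bst2, or tetherin, which holds budding virus on the cell, measured 6.35, 7.81 and 8.26 in post-lactation arrays, against 7.43, 7.55 and 6.14 in lactation arrays and 5.75, 8.21 and 7.59 in virgin arrays. The array of set 1, the set with the lowest array medians, was the lowest of its group each time. Within sets post-lactation exceeded lactation by 0.22, 0.72 and 0.38 (mean 0.44, adjusted p = 1, and 0.336 with the block).

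Ifi27l2a also had its lowest array of each group in set 1, at 8.09, 9.64 and 9.57 in post-lactation arrays, 8.57, 9.37 and 8.15 in lactation arrays and 7.17, 9.75 and 8.60 in virgin arrays. The groups overlapped. Its post-lactation minus virgin difference of 0.60 came to -0.07 without virgin 1, and its lactation minus virgin difference of 0.19 came to -0.47. Mx1, a dynamin-like antiviral GTPase, lay below the floor, and Mx2 differed by at most 0.10 in size between any pair of groups. Ifi35 and the pro-apoptotic Xaf1 differed by at most 0.10 in size as well. Parp14, an ADP-ribosyltransferase, differed by -0.24 between lactation and virgin bone and by 0.22 between post-lactation and lactation bone. Trim30a, a damper of innate signalling, gave -0.39 and 0.30 for the same pairs, and its 2 probe sets disagreed in direction for post-lactation minus virgin, at -0.09 and 0.43.

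The GTPases of the Gbp and Irg families, which attack the vacuoles of intracellular pathogens and answer chiefly to interferon gamma, include Iigp1, the member with the largest upward difference after weaning. Iigp1 measured 8.18, 8.76 and 7.65 in post-lactation arrays, against 6.68, 6.90 and 6.29 in lactation arrays and 6.80, 8.94 and 7.72 in virgin arrays. All post-lactation arrays exceeded all lactation arrays, and the virgin arrays overlapped both. The post-lactation minus lactation difference was 1.58 ± 0.46 (SE), 2.98-fold, with 1.89, 0.75 and 2.08 within the sets, and did not pass (adjusted p = 0.333, and 0.186 with the block).

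Between lactation and virgin bone Iigp1 differed by -1.20 ± 0.46 (adjusted p = 1, and 0.610 with the block), with -0.52, -2.04 and -1.04 within the sets. It came to -0.64 without virgin 2 and to -1.71 without virgin 1. A second Iigp1 probe set gave 1.49 and -1.12 for the same comparisons. Post-lactation and virgin bone differed by 0.38 ± 0.46, which came to -0.13 without virgin 1. Gbp2 measured 6.61, 7.51 and 6.93 in post-lactation arrays, against 6.82, 6.43 and 6.06 in lactation arrays and 6.56, 7.44 and 7.01 in virgin arrays. Its difference was 0.58 for post-lactation minus lactation and -0.57 for lactation minus virgin, both with SE 0.31, with an adjusted p of 1 for each, and of 0.204 and 0.460 with the block. The second Gbp2 probe set gave 0.63 and -0.22 for these pairs.

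Gbp3 measured 7.49, 7.80 and 7.51 in post-lactation arrays, against 6.97, 7.41 and 6.80 in lactation arrays, without overlap (difference 0.54 ± 0.25, adjusted p = 0.989, and 0.275 with the block). Gbp7, which lies next to Gbp3 on chromosome 3, differed by -0.01 between lactation and virgin bone, and its 2 probe sets disagreed in sign there, at -0.01 and 0.05. Igtp and Irgm1, regulators of the Irg system, differed by -0.04 and -0.17 between lactation and virgin bone. Igtp measured 7.69, 7.88 and 7.22 in post-lactation arrays, against 7.28, 8.15 and 8.09 in lactation arrays, a difference of -0.25 that ran from -0.93 to 0.59 within the sets. All 6 GTPases had lower means in lactation than in virgin bone, with a median of -0.30, and 4 of 6 had higher means in post-lactation than in lactation bone, with a median of 0.38.

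Psmb8 and Psmb9 are the subunits that turn the proteasome into the immunoproteasome, and Tap1 carries its peptides into the endoplasmic reticulum. On chromosome 17 Tap1 lies between the other genes, with 0 protein-coding genes in either gap. Psmb8 measured 9.0, 9.35 and 9.59 in post-lactation arrays, against 8.82, 9.10 and 8.73 in lactation arrays and 9.02, 9.66 and 8.98 in virgin arrays. Psmb9 measured 8.93, 8.86 and 8.98 in post-lactation arrays, against 8.35, 8.74 and 8.66 in lactation arrays and 8.95, 9.32 and 8.59 in virgin arrays. The post-lactation arrays of Psmb9 all exceeded the lactation arrays, and those of Psmb8 overlapped them. The differences for post-lactation minus lactation were 0.43 and 0.34 (adjusted p = 1 for both, and 0.113 and 0.242 with the block), and for lactation minus virgin -0.34 and -0.37 (1 for both, and 0.435 and 0.430). Both were of one sign within all 3 sets in these comparisons. Tap1 differed by -0.05 for post-lactation minus lactation and by -0.10 for lactation minus virgin. Beside Gbp7 and Trim30a, probe sets of Tap1, Dhx58, Stat2, Ifi35, Xaf1, Zbp1, Parp14 and Psmb8 disagreed in direction in at least 1 comparison, and for Psmb8 and Parp14 only for post-lactation minus virgin.

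**Figure D3:**
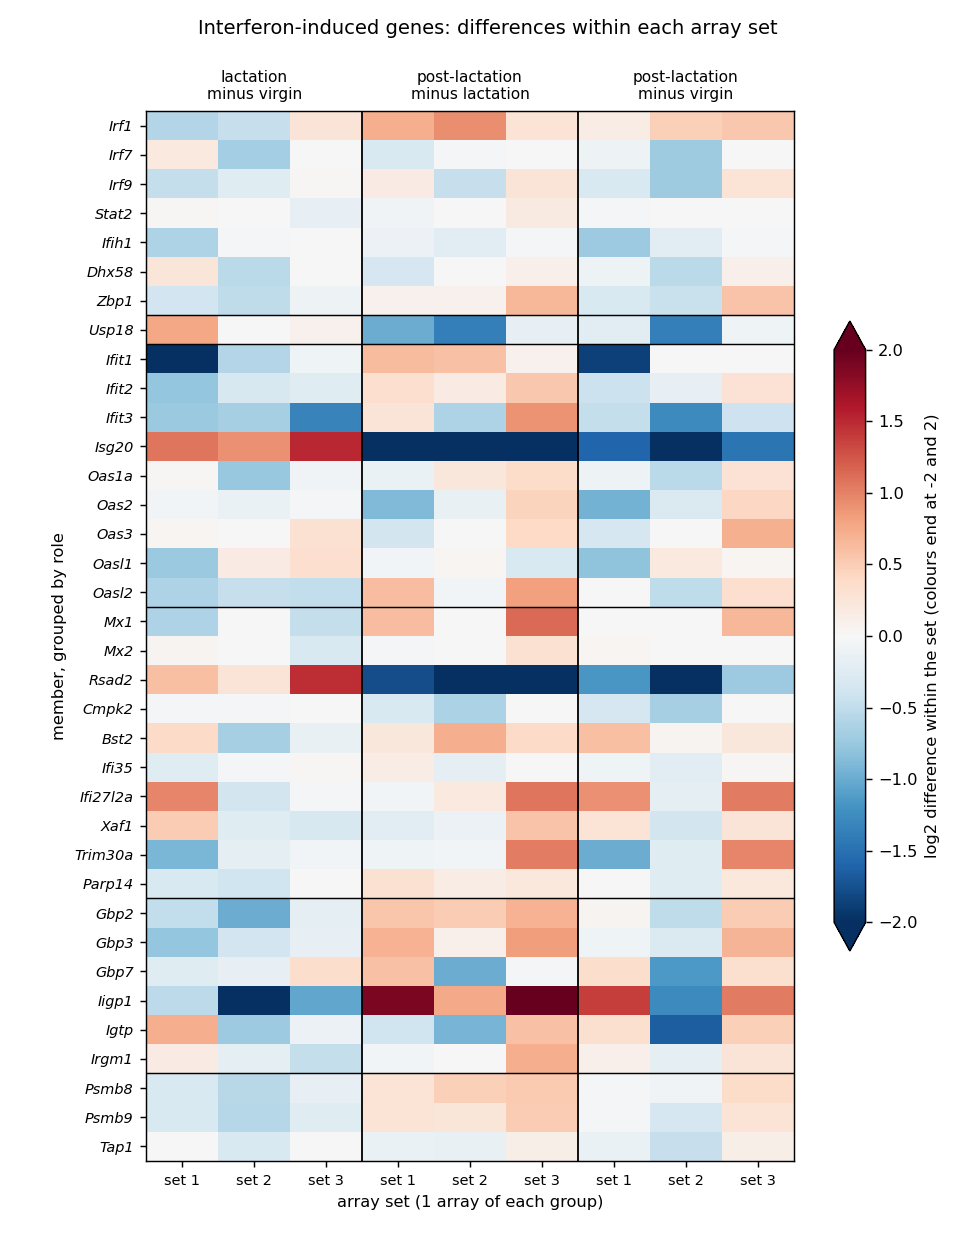
Log2 difference within each of the 3 array sets for the 36 measured members, grouped by role from top to bottom, with red for higher and blue for lower in the first-named group and colours ending at 2 and -2. Isg20 and Rsad2 are blue in all 3 sets for post-lactation minus lactation, and Iigp1 is red there at 1.89, 0.75 and 2.08.

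Across the list, 31 of 36 members had lower means in lactation than in virgin bone, against 47.1% of all genes, and the median difference was -0.16, against 0.01 over all genes. The medians within sets 1, 2 and 3 were -0.24, -0.31 and -0.06. None passed in limma, where 0.0% of all genes rose and 0.0% fell, nor with the set as a block, where 0.022% rose and 0.0% fell. At an unadjusted p under 0.05 there were 4 members without the block and 8 with it, 7 of these lower, among 328 and 1457 of all 18194 genes. Of the 1457 genes, 410 were lower and 1047 higher. Within all 3 sets 12 members were lower, against 6.11% of all genes, and 2 were higher, Isg20 and Rsad2, against 10.4%. For Rsad2 this held by its brightest probe set alone, as its others were lower in lactation in set 1. Among the 32 members above the floor 11 were lower in every set, against 7.98% of the 11172 genes above it. Ties limit these comparisons. In sets 2 and 3, 36.1% to 44.1% of probe sets were equal between 2 arrays. Of the 36 members 28 were lower and 3 higher in set 2, and 21 and 9 in set 3. The share of ties was not matched between members and all genes. The 12 were Zbp1, Ifit1, Ifit2, Ifit3, Oas2, Oasl2, Trim30a, Gbp2, Gbp3, Iigp1, Psmb8 and Psmb9. By their second probe sets, Gbp2 and Trim30a were not lower in set 3. These read 6.49 and 5.71 in lactation 1, against 6.44 and 5.60 in virgin 3. The second probe set of Zbp1, with every group mean below the floor, was not lower in sets 1 and 3. It read 3.469 in lactation 3, against 3.39 in virgin 1, and 4.364 in both lactation 1 and virgin 3. The median came to -0.01 without virgin 2 and to -0.31 without virgin 1 or without lactation 2, so its size rested on single arrays.

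Between post-lactation and lactation bone, 22 members had higher means and 14 lower, with a median of 0.12, against 0.00 over all genes, and medians of -0.04, 0.00 and 0.37 within the sets. The 2 members that fell stand beside 0.693% of all genes that fell without the block and 2.99% with it. No member rose, against 0.0165% and 0.539% of all genes. At an unadjusted p under 0.05 there were 5 members without the block and 11 with it, 8 of these higher, among 921 and 2740 of all 18194 genes. Of the 2740 genes, 1021 were higher and 1719 lower. Within all 3 sets 11 members were higher, against 12.8% of all genes, and 4 lower, against 16.1%. Of the 32 above the floor the 11 higher members compare with 17.1% of genes. These 11 were Irf1, Zbp1, Ifit1, Ifit2, Bst2, Parp14, Gbp2, Gbp3, Iigp1, Psmb8 and Psmb9. By their second probe sets, with group means below the floor, Zbp1 and Parp14 were not higher in every set. That of Zbp1 was lower in set 1 (2.999 in post-lactation 1, against 3.469 in lactation 3) and equal in sets 2 and 3. That of Parp14 was equal in set 2, at 4.385. Both comparisons use the same lactation arrays, so the lower values in lactation and the higher values after it are not separate observations. The median ran from 0.01 without lactation 1 to 0.33 without post-lactation 1.

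Between post-lactation and virgin bone 24 of 36 members had lower means, against 48.6% of all genes, with a median of -0.10, against 0.00 over all genes. The 1 member that fell, Isg20, stands beside 0.17% of all genes that fell, and with the block 0 members fell, against 0.423%. None rose, against 0.0055% of genes without and 0.0275% with the block. An unadjusted p under 0.05 was reached by 3 members without the block and 4 with it, among 381 and 1476 of all genes. Within all 3 sets 5 members were lower, against 8.15% of genes, and 2 higher, against 5.91%. The medians within the sets were -0.09, -0.31 and 0.26, and without virgin 2 the median was 0.13, of the opposite sign to the median over all arrays. Left without Isg20 and Rsad2, the other 34 members had medians of -0.19 for lactation minus virgin, 0.17 for post-lactation minus lactation and -0.08 for post-lactation minus virgin.

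**Figure D4:**
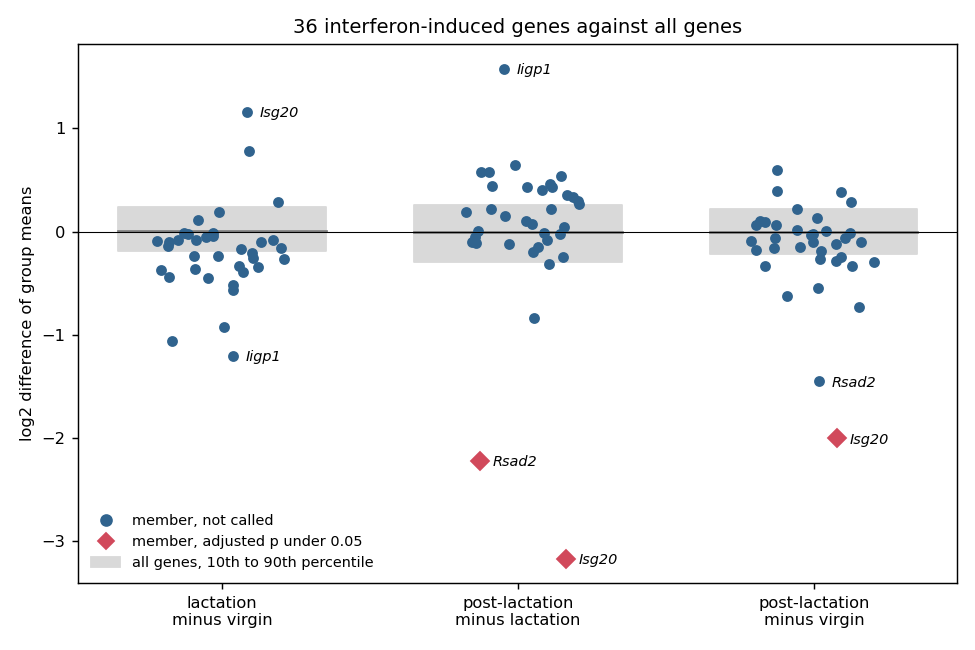
Log2 difference of group means for the 36 members in the 3 comparisons, with grey bands over all 18194 genes less the lowest and highest 10% (-0.19 to 0.24, -0.29 to 0.26 and -0.22 to 0.22, from left to right) and red diamonds for members with an adjusted p under 0.05. The diamonds are Isg20 at -3.17 and Rsad2 at -2.22 for post-lactation minus lactation and Isg20 at -2.0 for post-lactation minus virgin.

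The interferons themselves were mostly dim. Of 13 measured ligands, a list that includes the cytokines driving interferon gamma, 8 lay below the floor, among them 6 interferon alpha genes and Ifng. Ifnb1 averaged 4.89 ± 0.35 in post-lactation arrays and 4.18 ± 0.62 in lactation arrays (SD, n = 3 each), a difference of 0.71 ± 0.34 (SE) with 0.99, 0.45 and 0.68 within the sets. It rose in the fit with the set as a block alone (adjusted p = 0.045, against 1 without it), beside 0.539% of all genes. Since the lactation mean lies below the floor, the fold is at least 1.01. Il15, a cytokine that sustains lymphocytes which make interferon gamma, averaged 6.45 in post-lactation and 5.85 in virgin arrays, and the difference of 0.61 did not pass (adjusted p = 1, and 0.535 with the block).

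Of the 9 receptor chains and kinases none passed in any comparison. Ifnlr1, the interferon lambda receptor, was dim, with means of 4.93 in post-lactation and 4.55 in lactation arrays, the second below the floor. Ifnar1, a chain of the type I receptor, averaged 7.14 in post-lactation and 6.87 in lactation arrays. Of 12 further pathway factors, 9 had higher means in post-lactation than in lactation bone, with a median of 0.18. Irf8, a factor of myeloid and B lymphoid cells that also takes part in interferon gamma responses, averaged 8.56 ± 0.29 in post-lactation and 7.93 ± 0.26 in lactation arrays (SD, n = 3 each) without overlap. Its difference of 0.63 ± 0.24 (SE) passed with the block alone (adjusted p = 0.0294, against 0.738 without it), beside 0.539% of all genes that rose. Within the sets it was 0.74, 0.53 and 0.60. The largest differences for lactation minus virgin were -0.50 for the phosphatase Ptpn6 and -0.47 for Stat3, neither called.

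Other lists of the pathway gave no call. Of 16 nucleic acid sensors and adaptors outside the members, 14 had lower means in lactation than in virgin bone, with a median of -0.14, and 13 had higher means in post-lactation than in lactation bone, with a median of 0.12. Myd88, the adaptor of most Toll-like receptors, averaged 7.86 in lactation and 8.31 in virgin arrays, a difference of -0.45 that was negative within every set (adjusted p = 1, and 0.340 with the block). Of 10 further genes of antigen presentation, 8 had lower means in lactation than in virgin bone, led by Psmb10, the other inducible proteasome subunit, with -0.36 (1, and 0.218). Of 45 other interferon-induced genes, 31 had lower means in lactation than in virgin bone, with a median of -0.06, and 36 had higher means in post-lactation than in lactation bone, with a median of 0.10. The largest were Gbp6, with -0.70 for lactation minus virgin but 0.77, -1.43 and -1.43 within the sets, and Cxcl9, a chemokine induced by interferon gamma, with 0.80 for post-lactation minus lactation (adjusted p = 1 for both, and 0.791 and 0.415 with the block).

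Markers of other cell types were read beside these values as the mean log2 signal above the array median. Neutrophil genes, 13 of 13 above the floor, gave 7.01 to 7.97 in virgin, 6.85 to 7.46 in lactation and 7.30 to 7.53 in post-lactation arrays, and 12 of 13 had lower means in lactation than in virgin bone, with a median of -0.24. In post-lactation relative to lactation bone 8 of 13 had higher means, with a median of 0.31, and 1, Camp, rose with the block, beside 0.539% of all genes. B lymphocyte genes gave 1.03 to 2.53, 1.86 to 2.41 and 2.76 to 3.43 for the same groups. All 12 had higher means in post-lactation than in lactation bone, with a median of 1.17, and 1, Vpreb1, rose with the block. Osteoclast genes gave 2.64 to 2.71 in virgin, 3.47 to 3.85 in lactation and 2.68 to 3.18 in post-lactation arrays, with Calcr below the floor. In post-lactation relative to lactation bone 5 of 11 fell with the block, beside 2.99% of all genes, and 0 without it. In lactation relative to virgin bone 1, Dcstamp, rose with the block, beside 0.022% of all genes.

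Macrophage genes gave 2.40 to 2.68, 2.52 to 2.84 and 2.47 to 2.86 in virgin, lactation and post-lactation arrays, with Timd4 and Marco below the floor. Genes of plasmacytoid dendritic cells, the main makers of type I interferon, gave 1.75 to 2.18, 2.05 to 2.17 and 2.20 to 2.44 for these groups. T and NK lymphocyte genes gave 0.77 to 1.11, 0.94 to 1.14 and 1.00 to 1.45, and Cd3g, Cd8a, Cd247, Ncr1 and Prf1, 5 of the 11, lay below the floor. Endothelial genes gave 2.74 to 2.91, 2.74 to 2.98 and 2.79 to 3.41. The 36 members by the same measure gave 1.98 to 2.41, 1.92 to 2.07 and 1.88 to 2.20. The part of blood, marrow or osteoclast RNA in the members' levels was not tested.

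**Figure D5:**
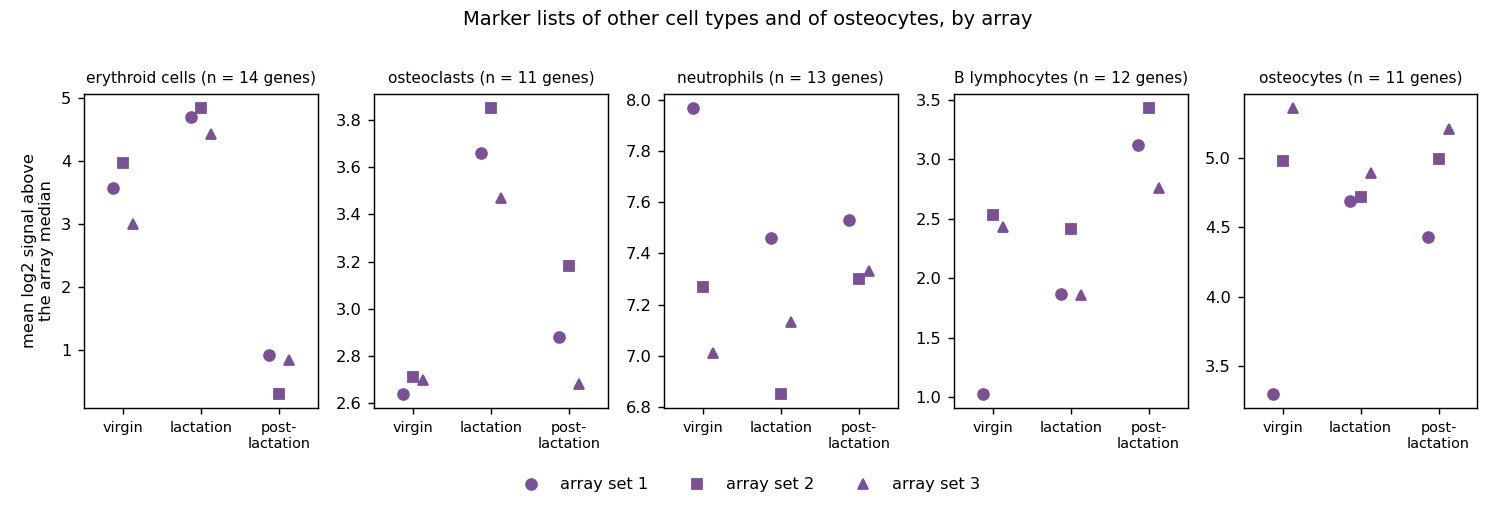
Mean log2 signal above the array median of marker genes of erythroid cells, osteoclasts, neutrophils, B lymphocytes and osteocytes in the 9 arrays, by group, with symbols for the array set. The erythroid level is 4.42 to 4.84 in lactation and 0.30 to 0.92 in post-lactation arrays, and virgin 1 has the lowest osteocyte level, 3.30.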

How the data were processed

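Biotin-labelled RNA of 9 samples was hybridised to Affymetrix M430 arrays, per the labels. The deposited values are log2 signals of 45101 probe sets, made with RMA per the submitters' processing notes, and GenePattern and Bioconductor are named in the series' design text; neither a version nor a setting is given in the sources used here. RMA corrects background, equalises array distributions and summarises probes, so it compresses the differences of dim genes. In the deposited values array medians still differed between the sets. Exactly equal values joined the arrays in sets, whose origin no label names. The number of arrays limits the precision. The values were used without a further log (none missing, range 1.55 to 14.88), and no column was left out. Of the probe sets, 34958 named 1 gene, 932 several and 9211 none by the platform annotation supplied, and 9012 genes, 14 of them members, had more than 1 probe set.

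limma 3.58.1 in R 4.3.3 (lmFit and eBayes, group means, 9 arrays, two-sided p, Benjamini-Hochberg adjustment) was tested on simulated data. The array set was a block in an alternative printed beside the results. Replicate numbers in the titles were taken as names, not pairs. Per comparison, the named members were those called and up to 5 with the largest rise and 5 with the largest fall of means above the floor; other members named with values were chosen after the values were seen. The members and lists were chosen with earlier results of these data known.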

Additional observations from a re-analysis of the deposited data

How the results depend on the processing

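Over all genes, limma called 0 in lactation against virgin bone, 4 with the array set as a block and 1 each with array medians subtracted or quantile normalization, and 0 whichever array was left out. In post-lactation against lactation bone it called 129, 642 with the block, 200 with quantile normalization and 33 with low values raised to the floor, and 76 to 138 with 1 array left out (76 without lactation 2, 80 without post-lactation 2). In post-lactation against virgin bone it called 32, 82 with the block, 0 with low values raised, and 13 to 34 with 1 array left out (21 without virgin 1, and 13, 13 and 16 without post-lactation 1, 2 and 3). Of the members, 2 were called in post-lactation against lactation bone, but 1, Isg20, with low values raised, with the mean of all probe sets (Rsad2 adjusted p = 0.0603) and without some arrays, a range of 1 to 2. With the block and 1 array left out, an alternative chosen after seeing the data, it was 0 to 2, with 0 without lactation 3 (Isg20 adjusted p = 0.0517). In these fits Rsad2 did not pass without any 1 lactation or post-lactation array, at an adjusted p of 0.058 to 0.125. Without lactation 1 the count was 2 although Rsad2 was at 0.102 (Isg20 0.0337), so a further member, not named here, passed there. Against virgin bone the count of 1 came to 0 with the block or low values raised (Isg20 adjusted p = 0.513) and to 0 to 1 with arrays left out. Arrays of one replicate number gave correlations of their deviations of -0.413 to 0.67. The 2 above 0 were virgin 1 with post-lactation 1 (0.468) and virgin 2 with lactation 2 (0.67). Both join arrays that also share a set, so the numbers were not taken to pair the arrays. Between arrays of different groups, every pair within a set gave 0.468 to 0.734, and every pair between sets -0.467 to -0.135. The fit without a block takes no account of the sets. With the replicate number as a replicate block the members called were 0, 2 and 1 in the order of comparisons above, and the genes called 0, 118 and 33, so this block changed no call of a member. The median member difference was -0.164 for lactation minus virgin, -0.314 within array set 2 and -0.311 to -0.01 with 1 array left out. It was 0.124 for post-lactation minus lactation, with 0.368 within set 3, and -0.098 for post-lactation minus virgin, with 0.263 within set 3. With 1 array left out, the sign turned for Ifi27l2a (-0.47 to 0.82) and Usp18 (-0.05 to 0.55) in lactation minus virgin, for Bst2 in post-lactation minus lactation (-0.01 to 1.00), and in post-lactation minus virgin for Gbp3 (-0.09 to 0.25), Bst2 (-0.42 to 0.86), Iigp1 (-0.13 to 0.94) and Ifi27l2a (-0.07 to 1.22). Isg20 in post-lactation against lactation bone passed with the array set block on all arrays and in each other alternative above that did not join that block with a left-out array, with an adjusted p of 7.26e-05 to 0.042. The causes of these shifts were not tested, other than that leaving out an array leaves fewer arrays. Differences of genes near the floor are limited by signal over background.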
